A study of Homo sapiens with 4 samples.

Results

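The let-7 guide strands are the 9 mature miRNAs hsa-let-7a-5p, hsa-let-7b-5p, hsa-let-7c, hsa-let-7d-5p, hsa-let-7e-5p, hsa-let-7f-5p, hsa-let-7g-5p, hsa-let-7i-5p and hsa-miR-98-5p (hsa, for human, is left out below), taken by name from a deposited table of 2039 human miRNAs. All 9 were listed, and all 9 passed the filter on low counts. Small RNAs had been counted in HFE-145, a line of immortalised gastric epithelium from a human stomach, in 2 samples overexpressing YAP5SA and 2 samples carrying the vector. YAP5SA is an active form of the Hippo pathway effector YAP whose LATS phosphorylation sites are mutated to alanine. How the constructs were delivered, whether the cells were clones and whether the duplicates were separate cultures was not given in the sources used here, and the p-values therefore reflect the spread among 4 samples that may be technical repeats.

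The let-7 family is known for restraining growth and for rising as cells differentiate. Its members share a seed, bases 2 to 8 of the mature strand, which pairs with target messenger RNAs such as those of RAS genes, HMGA2 and LIN28. The RNA-binding proteins LIN28A and LIN28B block the maturation of let-7 precursors by binding their terminal loops, where a GGAG motif is a known contact. The guide strand is the arm of the hairpin that Argonaute keeps, and the passenger strand is the other arm.

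The mature sequences are shown because the members differ from each other by few bases, so a sequencing error can turn a read of 1 member into another. They are written 5′ to 3′ as the deposited table gives them, and the capitals mark the seed.
let-7a-5p: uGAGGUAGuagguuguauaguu
let-7b-5p: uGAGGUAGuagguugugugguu
let-7c: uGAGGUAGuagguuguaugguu
let-7d-5p: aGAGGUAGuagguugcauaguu
let-7e-5p: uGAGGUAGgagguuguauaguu
let-7f-5p: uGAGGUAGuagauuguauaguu
let-7g-5p: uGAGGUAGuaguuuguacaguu
let-7i-5p: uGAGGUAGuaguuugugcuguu
miR-98-5p: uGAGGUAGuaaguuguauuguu

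All 9 strands were 22 bases long and held the same seed. Counted from 1 at the 5′ end, with the base of let-7a-5p first, let-7c differed by A19G, let-7e-5p by U9G and let-7f-5p by G12A. let-7b-5p differed by A17G and A19G, so it was 1 base from let-7c. let-7d-5p differed by U1A and U16C, let-7g-5p by G12U and U18C, and miR-98-5p by G11A and A19U. let-7i-5p was the most distant from let-7a-5p, with G12U, A17G, U18C and A19U. How the authors assigned reads that fit more than 1 member was not given in the sources used here, so the split between neighbours such as let-7b-5p and let-7c is uncertain.

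The 9 strands matched 12 RefSeq hairpin genes on GRCh38.p14, and GENCODE 29 gave the genes around them on GRCh38. The table has a single line for let-7a-5p, which is made from 3 genes, and a single line for let-7f-5p, which is made from 2, so their counts cannot be assigned to a locus. MIRLET7A1, MIRLET7F1 and MIRLET7D lie together on chromosome 9, in introns of the long non-coding RNA AL158152.2. MIRLET7A2 lies in an intron of MIR100HG on chromosome 11, and MIRLET7C in an intron of MIR99AHG on chromosome 21. MIRLET7A3 and MIRLET7B lie in exons of MIRLET7BHG on chromosome 22. MIRLET7E lies in an intron of SPACA6 on chromosome 19, MIRLET7G in an intron of WDR82 on chromosome 3, and MIRLET7I in an intron of AC048341.1 on chromosome 12. MIR98 and MIRLET7F2 lie in introns of HUWE1 on chromosome X. On the opposite strand, MIRLET7E overlaps an exon of SPACA6P-AS and MIRLET7I an exon of LINC01465, and the use of strand in the authors' counting is not stated.

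The hairpins of let-7b and let-7i are shown because the shares of these members in the pool differed most between the groups, with both mature arms in capitals and the guide arm first. MIRLET7B is at chr22:46113686-46113768 on the plus strand, and MIRLET7I at chr12:62603686-62603769 on the plus strand, from RefSeq on GRCh38.p14.
MIRLET7B: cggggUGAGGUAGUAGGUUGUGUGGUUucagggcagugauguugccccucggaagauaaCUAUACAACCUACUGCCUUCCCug
MIRLET7I: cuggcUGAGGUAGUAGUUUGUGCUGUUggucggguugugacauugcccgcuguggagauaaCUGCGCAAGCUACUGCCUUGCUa
The motif GGAG was searched between the arms, on the transcribed strand only. It was found in 8 of the 11 let-7 hairpins with both arms listed, MIRLET7I among them, and not in MIRLET7B, MIRLET7A3 or MIR98. Over all RefSeq hairpins with both arms listed, 60 of 739 held it, or 8.12%.

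Total counts were 136903 and 191954 in YAP5SA replicates 1 and 2, and 217235 and 195283 in vector replicates 1 and 2. All 7 epithelial marker miRNAs had counts in every library, with a summed level of 12076 and 15114 CPM in YAP5SA replicates 1 and 2 and of 29164 and 25668 CPM in vector replicates 1 and 2. CPM here are counts scaled to each library's total over the tested miRNAs and by TMM, a scaling between libraries. Where library totals are named below as a scaling in place of TMM, they are also totals over the tested miRNAs. These were 127458 and 185951 in YAP5SA replicates 1 and 2, and 213047 and 191829 in vector replicates 1 and 2. The 8 embryonic stem cell miRNAs, led by miR-372, summed to 238016 and 372357 CPM in the YAP5SA and 342856 and 391640 CPM in the vector libraries. The lists of blood, muscle, fibroblast, endothelial, neural and liver markers each summed to at most 534 CPM in any library, and no listed marker was at 0 in all 4 libraries. miRNAs with a mean count under 20 took 10.5% and 5.56% of counts in YAP5SA replicates 1 and 2, against 3.41% and 3.15% in vector replicates 1 and 2, and the part of this shift in the results below was not tested.

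As a pool, the 9 let-7 strands held 3.32% to 4.14% of the reads of a library, and the YAP5SA and vector groups overlapped. They had 4539 and 6599 counts in YAP5SA replicates 1 and 2, and 8989 and 6567 counts in vector replicates 1 and 2. That was 3.32% of all counts in YAP5SA replicate 1 (exact binomial 95% interval 3.22 to 3.41), 3.44% in YAP5SA replicate 2 (3.36 to 3.52), 4.14% in vector replicate 1 (4.05 to 4.22) and 3.36% in vector replicate 2 (3.28 to 3.44). Intervals cover counting error only. Vector replicate 1 was high, and the other vector library lay between the YAP5SA libraries, so the groups were not apart. The pool averaged 3.38% ± 0.09 of counts in YAP5SA samples and 3.75% ± 0.55 in vector samples (SD, n = 2 each; two-sided exact permutation test over samples, p = 0.67). With 2 samples against 2, this test cannot give a p under 0.33. After TMM scaling the pool stood at 25782 and 34536 CPM in the YAP5SA and at 47493 and 43166 CPM in the vector libraries, and there the groups did not overlap (two-sided exact permutation test, p = 0.33). Whether the pool was lower in YAP5SA cells therefore rested on the scaling. In bulk RNA, fewer cells of a kind and less of a miRNA per cell cannot be told apart.

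The order of the members was nearly the same in every library. let-7f-5p led with 29.7% and 31.02% of the pool in YAP5SA replicates 1 and 2 and 30.6% and 30.5% in vector replicates 1 and 2. let-7f-5p, let-7a-5p, let-7i-5p and let-7g-5p together made 80.3% and 79.4% of the pool in the YAP5SA and 83.5% and 83.5% in the vector libraries. let-7d-5p, miR-98-5p and let-7c were the rarest in every library. let-7c made 0.59% and 0.58% in the YAP5SA and 0.63% and 0.50% in the vector libraries, and miR-98-5p made 0.88% and 1.05% in the YAP5SA and 1.10% and 0.94% in the vector libraries. Neither of these rare members separated the groups on raw counts.

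Inside the pool, let-7b-5p held a larger part and let-7i-5p a smaller part in both YAP5SA libraries. let-7b-5p took 8.64% of the pool in YAP5SA replicate 1 (exact binomial 95% interval 7.83 to 9.49) and 10.7% in YAP5SA replicate 2 (9.99 to 11.5). It took 6.12% in vector replicate 1 (5.63 to 6.63) and 5.91% in vector replicate 2 (5.35 to 6.51). Both YAP5SA values lay above both vector values, with no overlap of the counting intervals between the groups. The intervals of the 2 YAP5SA replicates did not overlap each other either, so their spread was wider than counting error. The mean was 9.68% ± 1.48 in YAP5SA samples and 6.01% ± 0.15 in vector samples, a difference of 3.67 percentage points (SD, n = 2 each; two-sided exact permutation test, p = 0.33, the smallest it can give).

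let-7i-5p had the opposite pattern. It took 17.3% of the pool in YAP5SA replicate 1 (exact binomial 95% interval 16.2 to 18.4) and 16.1% in YAP5SA replicate 2 (15.3 to 17.05). It took 21.1% in vector replicate 1 (20.3 to 21.97) and 20.97% in vector replicate 2 (19.99 to 21.97). The mean was 16.7% ± 0.80 in YAP5SA samples and 21.04% ± 0.10 in vector samples, a difference of -4.34 percentage points (SD, n = 2 each; two-sided exact permutation test, p = 0.33). let-7i-5p was second to let-7f-5p in the vector libraries and came after let-7a-5p in the YAP5SA libraries. The ratio of let-7i-5p to let-7b-5p counts was 2 and 1.504 in YAP5SA replicates 1 and 2, and 3.45 and 3.55 in vector replicates 1 and 2. This ratio of counts within a library does not depend on the scaling between libraries. Computed from the authors' log2 values, let-7b-5p took 7.33% and 10.3% of the pool in the YAP5SA and 5.99% and 6.68% in the vector libraries, and let-7i-5p took 17.3% and 14.7% in the YAP5SA and 21.4% and 19.8% in the vector libraries.

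**Figure D1:**
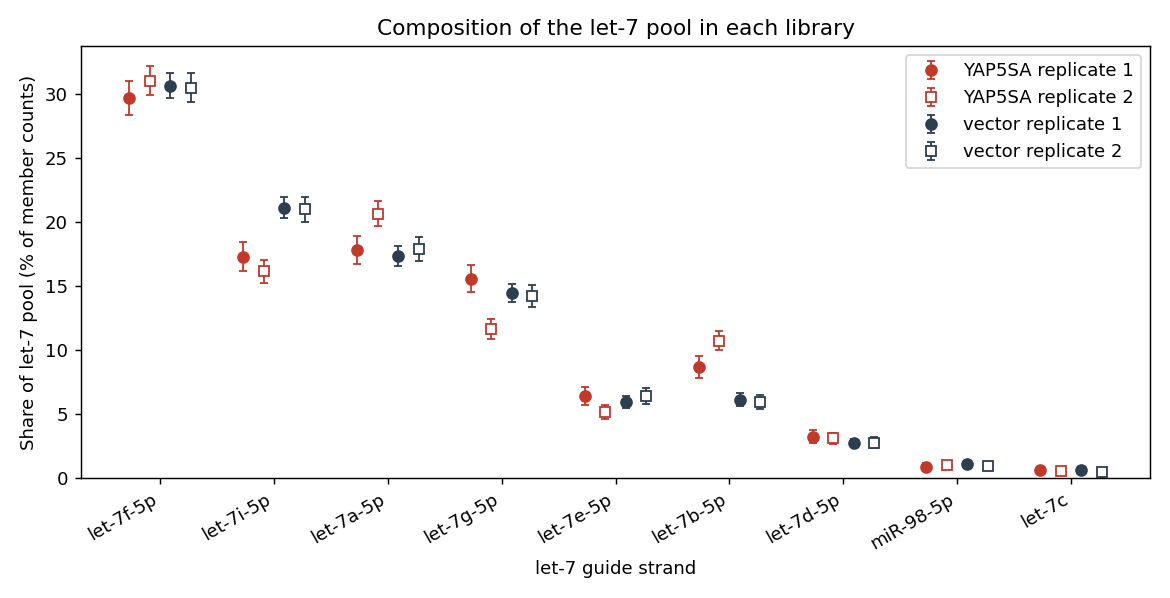
Share of the let-7 pool (percent of the 9 members' counts, vertical axis) held by each guide strand in YAP5SA replicates 1 and 2 (red) and vector replicates 1 and 2 (dark); bars are exact binomial 95% intervals and cover counting error only. let-7b-5p lies at 8.64% and 10.7% in YAP5SA and 6.12% and 5.91% in vector libraries, and let-7i-5p at 17.3% and 16.1% in YAP5SA and 21.1% and 20.97% in vector libraries.

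let-7d-5p was the other member whose shares did not overlap, at 3.22% and 3.09% in the YAP5SA and 2.71% and 2.74% in the vector libraries, but its counting intervals overlapped between groups. On raw counts, shares did not overlap for 3 of 9 members, 2 higher and 1 lower in YAP5SA libraries. The background was wide: counts relative to the let-7 pool did not overlap between groups for 53.5% of the 602 tested miRNAs on the higher side and for 9.63% on the lower side. On the authors' normalized values, shares did not overlap for 7 of 9 members, with let-7b-5p, let-7d-5p and let-7f-5p higher and let-7c, let-7g-5p, let-7i-5p and miR-98-5p lower in YAP5SA libraries. There the background was 26.4% on the higher and 28.6% on the lower side. let-7f-5p took 32.2% and 32.7% of the pool in the YAP5SA and 27.5% and 30.1% in the vector libraries on those values, and let-7g-5p took 13.9% and 11.8% in the YAP5SA and 16.01% and 14.7% in the vector libraries. The separation of let-7b-5p, let-7d-5p and let-7i-5p was thus present in both measures, and that of the other 4 only in the authors' values.

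On raw counts, let-7g-5p, let-7a-5p and let-7e-5p overlapped between the groups. let-7g-5p took 15.6% and 11.6% in YAP5SA replicates 1 and 2, on both sides of its 14.4% and 14.2% in the vector libraries. let-7a-5p took 17.8% and 20.7% in the YAP5SA and 17.3% and 17.9% in the vector libraries. let-7e-5p took 6.39% and 5.14% in the YAP5SA and 5.92% and 6.38% in the vector libraries. YAP5SA replicate 2 was the library at the far end for all 3, with more let-7a-5p and less let-7g-5p and let-7e-5p. For let-7e-5p its counting interval (4.62 to 5.70) overlapped that of vector replicate 1 (5.44 to 6.43).

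On raw counts the vector libraries had almost identical pool compositions, which was not so on the authors' normalized values. The dissimilarity of 2 libraries, which is the part of the pool that would have to move between members to make them equal, was 1.02% between the vector replicates and 6.48% between the YAP5SA replicates. Between groups it was 5.06% and 4.64% for YAP5SA replicate 1 against vector replicates 1 and 2, and 8.69% for YAP5SA replicate 2 against either vector library. On raw counts YAP5SA replicate 1 was thus nearer to both vector libraries than to the other YAP5SA library. The chi-square per degree of freedom over the 9 members was 8.38 between the YAP5SA replicates and 0.56 between the vector replicates. Over all 602 tested miRNAs it was 15.1 between the YAP5SA replicates and 24.4 between the vector replicates. The vector libraries thus differed by more than sampling noise over the whole table, while the split of counts among their let-7 members did not. The size of the pool did differ between them, at 4.14% of all counts in vector replicate 1 and 3.36% in vector replicate 2. The mean YAP5SA pool and the mean vector pool differed by 5.73%. On the authors' normalized values the dissimilarity was 6.34% between the YAP5SA replicates and 5.59% between the vector replicates. Between groups it was then 7.12% and 5.38% for YAP5SA replicate 1 and 12.1% and 11.1% for YAP5SA replicate 2, against vector replicates 1 and 2 in that order.

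Member by member, no let-7 strand passed edgeR's quasi-likelihood test over all 602 miRNAs tested, with Benjamini-Hochberg adjustment and a threshold of 0.05. Of all miRNAs tested, 11.8% were called higher and 3.49% lower in YAP5SA samples. At an unadjusted p under 0.05 there were 3 members, let-7i-5p, let-7g-5p and let-7e-5p, and 200 of the 602 miRNAs. DESeq2 also called 0 members, where it called 8.97% of all tested in either direction. The members' log2 ratios of YAP5SA to vector, as fitted by edgeR, had a median of -0.59 against 0.11 over all tested miRNAs, and 8 of 9 were under 0, against 45.3% of all tested.

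let-7i-5p had 4453 and 5574 CPM in YAP5SA replicates 1 and 2, against 10028 and 9051 CPM in vector replicates 1 and 2. Both YAP5SA values lay below both vector values. Its log2 ratio was -0.93 with an SE of 0.26 (edgeR, adjusted p = 0.052), just outside the threshold. That size depended on the scaling. The log2 ratio of let-7i-5p was -0.44 with library totals over the tested miRNAs in place of TMM (edgeR, adjusted p = 0.34). It was -0.20 with TMM factors from miRNAs at a mean of at least 1000 CPM (edgeR, adjusted p = 0.58). let-7g-5p had 4010 and 4009 CPM in the YAP5SA and 6853 and 6139 CPM in the vector libraries, with a log2 ratio of -0.70 and an SE of 0.25 (edgeR, adjusted p = 0.098). let-7e-5p had 1647 and 1774 CPM in the YAP5SA and 2811 and 2754 CPM in the vector libraries, with a log2 ratio of -0.70 and an SE of 0.26 (edgeR, adjusted p = 0.11). These 3 strands had the closest replicates of the family within YAP5SA samples: replicate 2 was at 1.25, 0.9997 and 1.08 times replicate 1.

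let-7f-5p, the most abundant member, had 7651 and 10713 CPM in the YAP5SA and 14550 and 13153 CPM in the vector libraries (log2 ratio -0.59 with SE 0.28 by edgeR, adjusted p = 0.19). let-7a-5p had 4584 and 7133 CPM in the YAP5SA and 8232 and 7710 CPM in the vector libraries (log2 ratio -0.44 with SE 0.30 by edgeR, adjusted p = 0.35). YAP5SA replicate 2 was near the vector libraries for let-7a-5p and replicate 1 was not. let-7b-5p had 2227 and 3705 CPM in the YAP5SA and 2906 and 2550 CPM in the vector libraries, and was the member whose groups overlapped (log2 ratio 0.12 with SE 0.32 by edgeR, adjusted p = 0.84). For let-7b-5p the YAP5SA replicates were the lowest and the highest of the 4 libraries, 1.66-fold apart.

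let-7d-5p, miR-98-5p and let-7c had log2 ratios of -0.38, -0.66 and -0.56, with adjusted p = 0.43, 0.30 and 0.42 (edgeR). Their counts were low, from 27 and 38 of let-7c and 40 and 69 of miR-98-5p in the YAP5SA libraries, against 57 and 33 of let-7c and 99 and 62 of miR-98-5p in the vector libraries. The CPM of 8 members did not overlap between groups, all 8 lower in YAP5SA samples. Over all tested miRNAs, 26.6% did not overlap on the lower side and 33.9% on the higher side. In the authors' deposited table the ratio of YAP5SA to vector was under 1 for let-7i-5p, at 0.758 with p = 0.049, for let-7g-5p at 0.818 with p = 0.045 and for let-7e-5p at 0.813 with p = 0.034. It was also under 1 for let-7c, at 0.699 with p = 0.19, and miR-98-5p, at 0.737 with p = 0.17, in the authors' deposited table. The ratio was above 1 in the authors' deposited table for 4 of 9 members, let-7b-5p at 1.37 (p = 0.68), let-7d-5p at 1.16 (p = 0.15), let-7f-5p at 1.10 (p = 0.11) and let-7a-5p at 1.09 (p = 0.59). For let-7d-5p, let-7f-5p and let-7a-5p this direction was opposite to that of the edgeR log2 ratios.

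**Figure D2:**
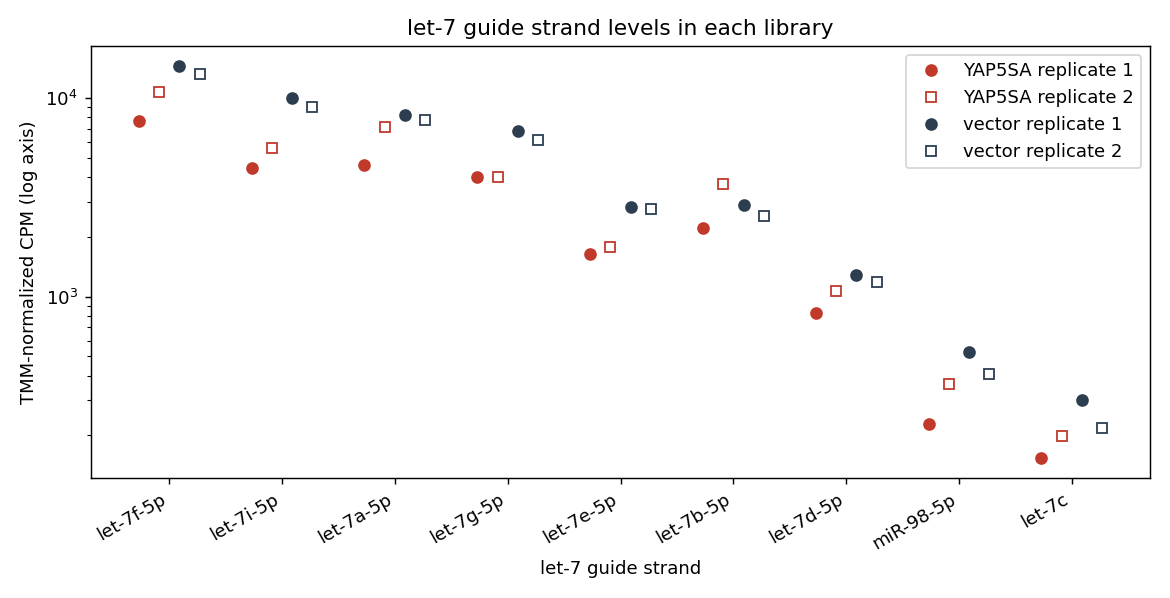
TMM-normalized CPM (log axis) of each let-7 guide strand in YAP5SA replicates 1 and 2 (red) and vector replicates 1 and 2 (dark). let-7i-5p lies at 4453 and 5574 CPM in YAP5SA and 10028 and 9051 CPM in vector libraries, and for let-7b-5p the YAP5SA libraries lie on both sides of the vector libraries.

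The direction of the family turned with the scaling, and its size and number of calls moved with the library left out. The members' median was -1.08 without vector replicate 2, -0.99 with no filter and -0.19 with the filter at a mean of 100 CPM. With library totals in place of TMM the members' median was -0.11, and with TMM factors from miRNAs at a mean of at least 1000 CPM it was 0.13, where let-7b-5p was called higher (log2 ratio 0.83 by edgeR, adjusted p = 0.045; 27.1% of all tested were called higher). Without YAP5SA replicate 2, all 9 members were called lower by edgeR with a median of -1.32, where 16.8% of all tested were called lower. Without YAP5SA replicate 1, 2 members were called lower, let-7i-5p and let-7g-5p, where 8.39% of all tested were, and without vector replicate 1 or vector replicate 2 no member was called. In those fits edgeR called 0.096% and 1.25% of all tested miRNAs in either direction, so the count of 0 says little about let-7. The members' median was under 0 in all 4 fits that left out a library. With RLE, the scaling of DESeq2, let-7i-5p was called lower (log2 ratio -0.99 by edgeR, adjusted p = 0.041), where 4.98% of all tested were. The median of all tested miRNAs also shifted with the scaling, from 0.11 with TMM to 0.61 with library totals and 0.83 with factors from abundant miRNAs. The let-7 median minus that median was -0.71 with TMM, and scaling alone can hardly move it, since it shifts all miRNAs alike. The gap did move with the miRNAs kept as background, to -0.36 with the 100 CPM filter and -1.27 with no filter. That background was not matched to let-7 in abundance, so the gap alone does not show a fall of let-7. The gap was -0.54 without YAP5SA replicate 1 and -1.44 without YAP5SA replicate 2. It was -1.06 without vector replicate 1 and -1.38 without vector replicate 2. With all 4 libraries and TMM, let-7b-5p was at 0.71 and let-7i-5p at -0.33 relative to the family's median log2 fold change, distances that scaling likewise leaves nearly fixed. Leaving out each library in turn gave 0.47 to 0.81 above for let-7b-5p, and -0.40 to -0.27 for let-7i-5p.

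**Figure D3:**
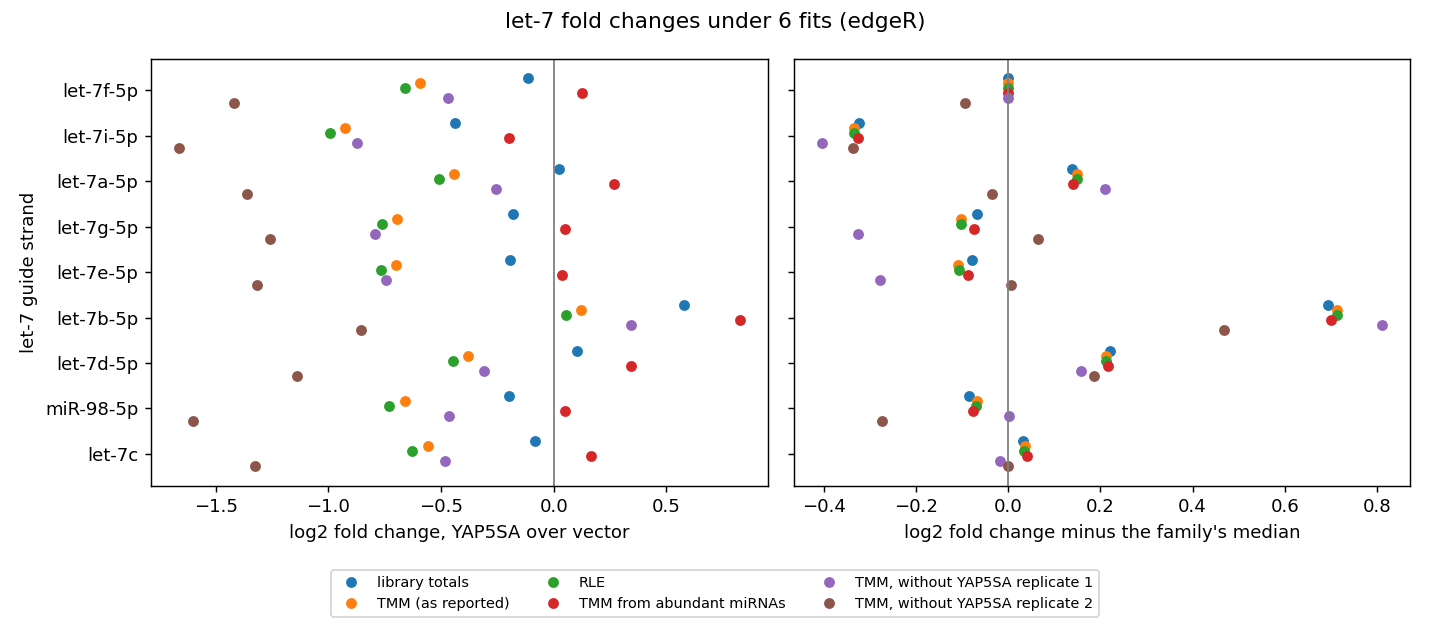
Left, log2 fold change (YAP5SA over vector) of each let-7 guide strand under 6 edgeR fits; right, the same values minus the family's median in that fit. The family's median lies between -1.32 without YAP5SA replicate 2 and 0.13 with scaling from abundant miRNAs, while let-7b-5p lies above and let-7i-5p below the family's median in both fits that leave out a YAP5SA library; scaling leaves these distances nearly fixed.

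The passenger strands gave another view that is free of scaling, as the share of passenger reads among the reads of both arms. For let-7b, the capitalised second arm of MIRLET7B, let-7b-3p, had 7 and 5 counts in YAP5SA and 26 and 18 counts in vector replicates 1 and 2. It was 1.75% of both arms in YAP5SA replicate 1 (exact binomial 95% interval 0.71 to 3.58) and 0.70% in YAP5SA replicate 2 (0.23 to 1.63), against 4.51% in vector replicate 1 (2.97 to 6.54) and 4.43% in vector replicate 2 (2.65 to 6.92). let-7b-5p took more of the guide pool in the same libraries in which let-7b-3p was scarcer, and a link between the arms was not tested. How often the arm shares of other hairpins separated the groups was not computed. let-7b-3p was called lower (log2 ratio -1.94 by edgeR, adjusted p = 0.045), where 3.49% of all tested were. It was no longer called with library totals (-1.44, adjusted p = 0.12), with TMM from abundant miRNAs (-1.21, adjusted p = 0.17), by DESeq2 (-2.03, adjusted p = 0.11), without vector replicate 1 (-2.16, adjusted p = 0.36) or without vector replicate 2 (-2.43, adjusted p = 0.12, the last 2 by edgeR).

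let-7g showed the opposite pattern, with 20 and 11 passenger counts in YAP5SA and 2 and 3 in vector replicates 1 and 2. let-7g-3p was 2.75% and 1.42% of both arms in the YAP5SA and 0.15% and 0.32% in the vector libraries. It was called higher (log2 ratio 2.47 by edgeR, adjusted p = 0.045), where 11.8% of all tested were. It was no longer called with no filter (1.998, adjusted p = 0.17), by DESeq2 (2.46, adjusted p = 0.15), or by edgeR without YAP5SA replicate 1 (1.82, adjusted p = 0.24), vector replicate 1 (1.72, adjusted p = 0.62) or vector replicate 2 (2.54, adjusted p = 0.398). let-7i-3p had 7 and 1 counts in YAP5SA and 0 counts in both vector libraries, where a count of 0 allows a share of up to 0.16% in vector replicate 1 and 0.22% in vector replicate 2. The YAP5SA shares of let-7i-3p were 0.89% and 0.09%, so replicate 2 lay under both of those limits. let-7d stood apart in having an abundant passenger, at 35.1% and 34.6% of both arms in the YAP5SA and 42.2% and 33.6% in the vector libraries, with no separation of the groups. let-7a, let-7e and let-7f also overlapped between groups. miR-98-3p was 20% and 5.48% of both arms in the YAP5SA and 3.88% and 4.62% in the vector libraries, on 10 and 4 counts in the YAP5SA and 4 and 3 in the vector libraries, so YAP5SA replicate 1 carried its difference. The libraries with more reads in rare miRNAs were also those with more let-7g-3p and let-7i-3p, and the part of that shift was not tested. let-7b-3p had fewer reads in the YAP5SA than in the vector libraries, and its relation to that shift was not tested either. No strand was listed under the name let-7c-3p, so let-7c has no passenger share here.

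**Figure D4:**
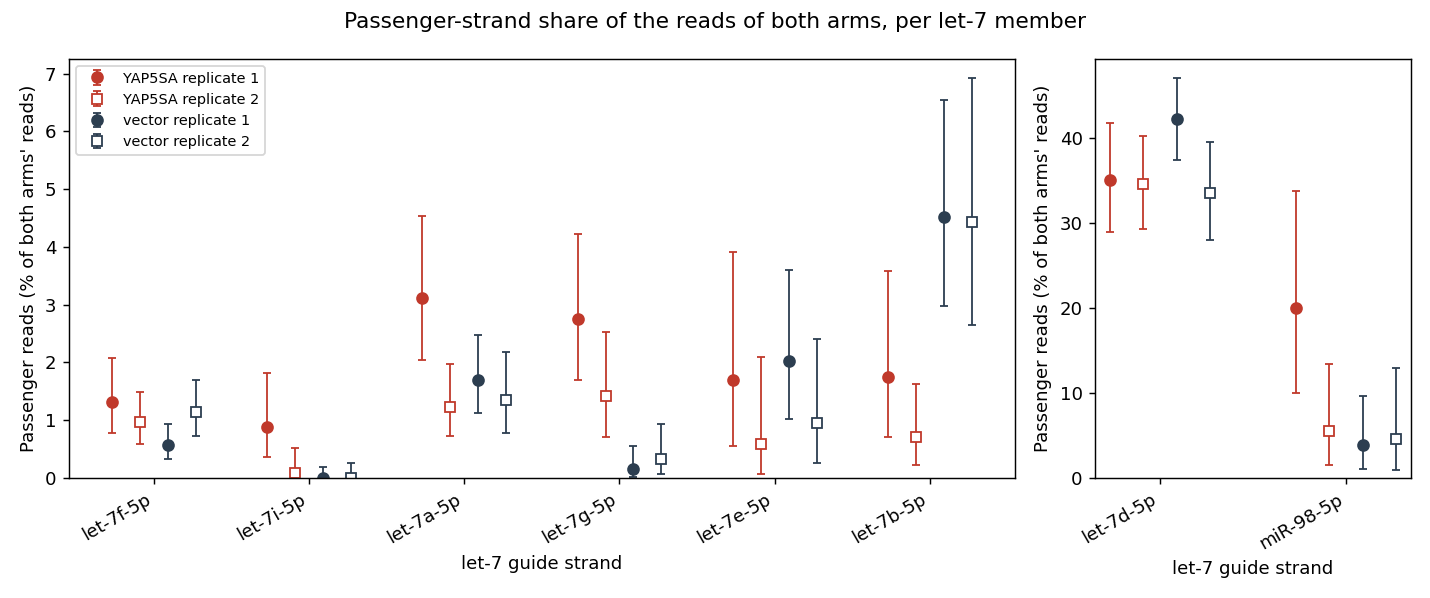
Passenger-strand reads as a percent of the reads of both arms (vertical axes, with a separate scale for let-7d-5p and miR-98-5p on the right) in YAP5SA replicates 1 and 2 (red) and vector replicates 1 and 2 (dark); bars are exact binomial 95% intervals and cover counting error only. let-7b lies at 1.75% and 0.70% in YAP5SA and 4.51% and 4.43% in vector libraries, and let-7g at 2.75% and 1.42% in YAP5SA and 0.15% and 0.32% in vector libraries.

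Other miRNAs of the table share the seed or a transcript with let-7. Bases 2 to 8 were the same in 2 further miRNAs, whose sequences are shown because they extend the seed family beyond the 9 members.
miR-4458: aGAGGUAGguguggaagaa
miR-4500: uGAGGUAGuaguuucuu
miR-4500 had 25 and 36 counts in the YAP5SA and 29 and 25 counts in the vector libraries, with a log2 ratio of 0.06 and an SE of 0.43 (edgeR, adjusted p = 0.95). miR-4458 had 4 and 4 counts in the YAP5SA and 7 and 3 in the vector libraries and was too rare to test. The seed family was thus almost wholly the 9 members in these cells.

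With TMM scaling, 5 miRNAs known to be cut from the same primary transcripts as let-7 genes had log2 fold changes under 0. So had 45.3% of all tested miRNAs, and none of the 5 passed edgeR's test. Their log2 ratios under other scalings are not given here. Beside MIRLET7A2, miR-100-5p had 15541 and 22802 CPM in the YAP5SA and 37037 and 42949 CPM in the vector libraries (log2 ratio -1.06 with SE 0.29 by edgeR, adjusted p = 0.0504). Beside MIRLET7E, miR-99b-5p had a log2 fold change of -0.89 and miR-125a-5p of -0.66, on both sides of let-7e-5p at -0.70 (edgeR, adjusted p = 0.055, 0.20 and 0.11). Beside MIRLET7C, miR-99a-5p had a log2 ratio of -0.996 (edgeR, adjusted p = 0.087), against -0.56 for let-7c. miR-125b-5p, which is made from genes beside both MIRLET7A2 and MIRLET7C and targets LIN28, had a log2 ratio of -1.12 (edgeR, adjusted p = 0.085).

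Outside the family, the 5 miRNAs most like the let-7 pool were picked from 306 with a mean of at least 100 CPM, by Euclidean distance of centred log2 CPM over the 4 libraries. They were miR-182-5p (distance 0.15), miR-23a-3p (0.17), miR-200c-3p (0.18), miR-330-5p (0.20) and miR-200b-5p (0.22). miR-182-5p, from a cluster known in sensory epithelia, had 2442 and 3072 CPM in the YAP5SA and 3947 and 4029 CPM in the vector libraries. miR-200c-3p, known for keeping cells epithelial, had 6458 and 8452 CPM in the YAP5SA and 13610 and 11575 CPM in the vector libraries. With 4 libraries such likeness is a description of these samples.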

How the data were processed

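The deposited table lists mature miRNAs with raw read counts, which are whole numbers without normalization, per the file headers. The authors' log2 values are, per the file headers, read counts after a normalization whose method was not given in the sources used here. Their fold change is a ratio of YAP5SA to vector and its p-value comes from a test not named, per the file headers. The submitters' processing notes name FastQC and hg19. The aligner and annotation were not given in the sources used here. Samples were grouped by their titles. The 3 blank lines were left out.

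Counts were tested with edgeR 4.0.16 (quasi-likelihood, TMM, default filter, group as the term) in R 4.3.3 on all 4 samples, which kept 602 miRNAs and 96.9% of counts. The SE is the log2 fold change's size over the square root of F. Pool shares carry exact binomial 95% intervals from SciPy 1.17.1, and figures were drawn with matplotlib 3.10.9. Alternatives included DESeq2 1.42.0. On simulated data for YAP5SA against vector, in 10 runs over 602 miRNAs, edgeR found 18.0% of changes planted at 2-fold, 66.2% at 4-fold and 99.5% at 8-fold, with 3.35% of calls false. All miRNAs and both groups were simulated with the same dispersion, the spread beyond counting error, of 0.106. Apart from the planted changes, the simulated libraries differed only in total counts, so these rates may not hold for the real libraries. The members, the lists of markers and partners, the tests and the rule for the 5 most similar miRNAs were chosen with earlier results of these data known.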

Additional observations from a re-analysis of the deposited data

How the results depend on the processing

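The number of let-7 members called by edgeR was 0 as reported, 1 with RLE scaling (let-7i-5p), 1 with TMM from miRNAs at a mean of at least 1000 CPM (let-7b-5p, higher) and 0 to 9 when each library was left out. It stayed at 0 with library totals, no filter, the filter at a mean of 100 CPM, DESeq2 and the replicate block, where the median was -0.61 and no member's call changed. The members' median log2 fold change of -0.59 became -0.11 with library totals, 0.13 with TMM from abundant miRNAs, -0.99 with no filter, -0.19 with the 100 CPM filter, and -1.32 to -0.47 without each library. The sign changed with library totals for let-7a-5p (0.025) and let-7d-5p (0.11), and with the 100 CPM filter for let-7d-5p (0.029). Those totals were over the tested miRNAs, and the signs on totals over all miRNAs were not tested. With TMM from abundant miRNAs it changed for let-7a-5p (0.27), let-7c (0.17), let-7d-5p (0.34), let-7e-5p (0.038), let-7f-5p (0.13), let-7g-5p (0.051) and miR-98-5p (0.0498). For let-7b-5p it changed with no filter (-0.26) and ran from -0.86 to 0.34 without each library. The cause was not tested. Fits without a library also test other numbers of miRNAs, 679 to 1042, and the lone sample is assumed to vary like the other group.

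Over all miRNAs edgeR called 71 higher and 21 lower, against 147 and 12 with library totals, 163 and 4 with TMM from abundant miRNAs, 34 and 14 with no filter, and 25 and 1 with the 100 CPM filter. Either way it called 92 as reported, 136 with the replicate block and 1 to 283 without each library, and DESeq2 called 54. Replicate numbers only name the samples: the labels give no shared batch, and the replicate differences of the 2 groups had a Pearson correlation of 0.016 across 602 miRNAs, which are not independent.

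The pool's share of counts differed by -0.37 percentage points (YAP5SA minus vector), and stayed within its replicate spread of 0.39 under the other denominators and the authors' normalized values; without each library it ran from -0.76 to 0.01. The pool dissimilarity of 5.73% ran from 4.79% to 8.63% without each library and was 8.74% on the authors' normalized values. Depth limits let-7c, miR-98-5p and the passenger strands most. The alternatives for let-7b-3p and let-7g-3p were chosen after seeing the data: both kept their direction in every one that could be fitted, and neither passed the 100 CPM filter.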
